A study of Homo sapiens with 39 samples.

Results

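The comparison set both hybrid degraders, GDC-SAR and AZD-SAR, against SAR439859, the compound whose side chain they carry. The sample labels give only compound names and doses. The names are read here as the scaffold of GDC-0810 for GDC-SAR and that of AZD9496 for AZD-SAR, each with the SAR439859 side chain. On that reading the scaffold is the difference from SAR439859. Libraries were grouped by their labels: 12 hybrid libraries (3 per compound and dose) and 6 SAR439859 libraries (3 per dose), 18 of the 39 libraries in the series. The comparison was chosen with earlier results of these data known. Each compound was given at 30 or 300 nM for 24 hours to HCC1428-LTED, a luminal breast cancer line that carries the estrogen receptor and was kept long term without estrogen. All 18 libraries come from this 1 line in charcoal-stripped serum, and no group here is untreated. RNA was measured by stranded sequencing and is given in TPM (transcripts per 1000000), so sequencing depth is unknown. Nothing in the labels says whether replicates were separate cultures, and the series text speaks of duplicates, so p-values measure the spread between these libraries, which may be technical.

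The estrogen receptor, encoded by ESR1, is a transcription factor that, when bound by a ligand, takes up coactivators at its target genes. Antagonists and degraders place a side chain against the last helix of the ligand-binding domain, which blocks coactivator binding, and degraders also lower the amount of receptor protein. In luminal breast cancer cells the receptor drives genes such as PGR, GREB1 and TFF1, and through MYC and CCND1 it drives the cell cycle, in which E2F and MYB family factors switch on the genes of DNA replication and mitosis. The comparison asks which of these genes differ when the side chain is the same and the scaffold is not.

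The library set had 2 members that stood apart, and both were SAR439859 at 30 nM. Replicate 3 listed 15818 genes above 0, against 19307 to 25559 in the 16 others, and 1340 of the tested genes were at 0 in it, against 204 to 457. Replicate 1 had 447 TPM in mitochondrial pseudogenes, against 32559 to 65758 in the 16 others, and listed MTATP6P1, the most abundant of them, at 0 against 28192 to 58516 in the other 17. Its median-of-ratios size factor was 1.20, against 0.888 to 1.06 in the 16 others and the highest of the 18. Small noncoding RNA differed by place in a group: replicate 3 held the most of it in 6 of the 6 groups, and at 300 nM held 100555 TPM with SAR439859, 99997 with GDC-SAR and 109983 with AZD-SAR, against 26283 to 53710 in the 6 other libraries of that dose. The pooled count, the list medians and some genes below are given with and without these 2 libraries. Unless stated, other differences are from all 18. All 17 luminal epithelial markers, such as GATA3, KRT8 and ESR1, averaged above 1 TPM over the 18 libraries. FN1 was the 1 basal or mesenchymal marker above 1 TPM of 11 read, and COL1A1 and CD68 were the 2 of 15 stromal, endothelial and immune markers. The summed stromal, endothelial and immune markers ranged from 17.7 to 32.6 TPM with the hybrids and from 14.6 to 26.6 with SAR439859.

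Few genes were called between the hybrids and SAR439859 in the fit as described. Of 14404 genes tested with limma on log2(TPM + 1), with dose as a block, 17 (0.118%) were called at an adjusted p below 0.05. These were 13 genes higher with the hybrids (0.0903%) and 4 lower (0.0278%). The median gene differed by -0.01 on the log2 scale (hybrids minus SAR439859, the sign used throughout), with a median SE of 0.155. For 12789 genes (88.8%) the 95% interval of the difference lay within 1 log2 unit of 0 on the log2(TPM + 1) scale, and 109 genes (0.757%) had an estimate beyond that. At an unadjusted p below 0.05 there were 852 genes higher (5.92%) and 858 lower (5.96%), together 1710 (11.9%). All 12 hybrid libraries were above all 6 SAR439859 libraries for 8 genes (0.0555%) and below them for 7 (0.0486%), and 7 of these were called.

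**Figure D1:**
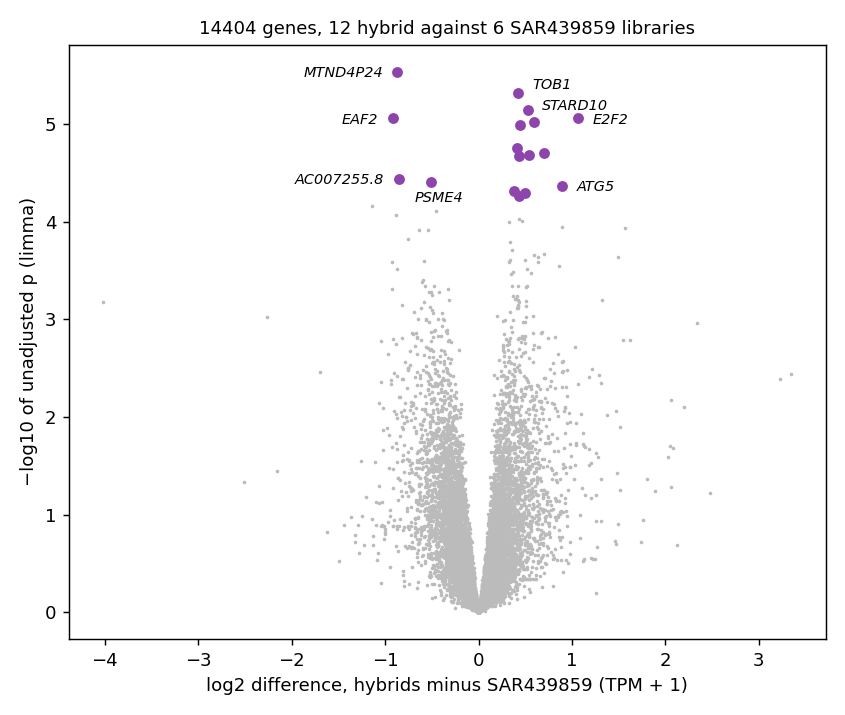
Log2 difference of each of 14404 genes (x axis, hybrids minus SAR439859 on log2(TPM + 1)) against -log10 of the unadjusted limma p (y axis). The 17 called genes are the large points, 13 to the right of 0 and 4 to the left, and the largest differences belong to genes that were not called.

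The call depended on the libraries and on the model. Without the 2 libraries that stood apart, 5 genes were called, all higher: MYBL2, STARD10 and TOB1, which were among the 17, and KRT19, a luminal keratin (0.38, adjusted p = 0.0346), and SERF2 (0.48, adjusted p = 0.0176), which were not. All 17 kept their sign there. Leaving out 1 library at a time gave 0 calls without SAR439859 30 nM replicate 3, SAR439859 300 nM replicate 2 or AZD-SAR 30 nM replicate 1 (limma, with 1372 to 1668 genes at an unadjusted p below 0.05). It gave 1 without SAR439859 300 nM replicate 3, 4 without SAR439859 30 nM replicate 2, and 7, 8 and 9 without GDC-SAR 300 nM replicate 2, GDC-SAR 30 nM replicate 1 and GDC-SAR 30 nM replicate 2. It gave 37 without SAR439859 30 nM replicate 1. None of the 17 was called in all 18 of these refits, and the most was 15, for E2F2. A fit with a mean for each compound and dose called 0 genes (limma, 1592 at an unadjusted p below 0.05, smallest adjusted p 0.0621). With a term for a library's place in its group, added after seeing the data, limma called 56 genes, and 22 with that term and a mean for each compound and dose.

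**Figure D2:**
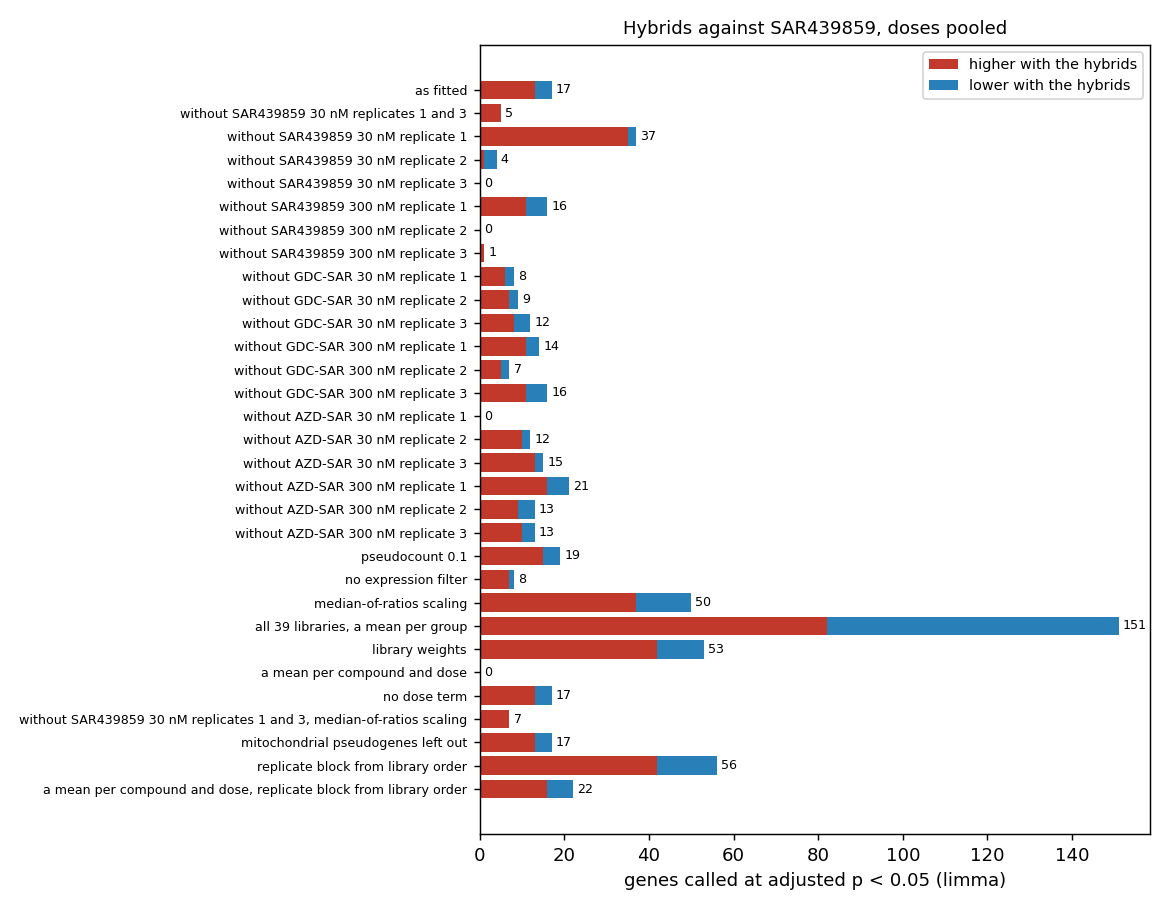
Number of genes called (x axis) under each setting (y axis), split into genes higher (red) and lower (blue) with the hybrids. The count runs from 0 to 151 around the 17 of the fit as described.

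Genes of the cell cycle and its transcription factors were among the 13 higher genes. E2F2, an activator of the E2F family that acts at entry into S phase (chromosome 1, 23506430 to 23531220, GRCh38), ranged from 2.98 to 8.23 TPM with the hybrids (median 4.73) and from 1.19 to 3.17 with SAR439859 (median 1.5). In 11 of 12 hybrid libraries E2F2 was above every SAR439859 library, and the lowest hybrid library, GDC-SAR at 300 nM, lay inside their range. The difference was 1.07 (SE 0.175, adjusted p = 0.0211), and 0.90 without the 2 libraries (adjusted p = 0.148). MYBL1, a MYB family factor that is also on the list of estrogen-induced genes, ranged from 11.6 to 17.0 TPM (median 14.4) against 7.02 to 10.9 (median 9.36). The groups did not overlap for MYBL1, and its highest SAR439859 value was that of 30 nM replicate 1. It differed by 0.59 (SE 0.0972, adjusted p = 0.0211), and by 0.58 without the 2 libraries (adjusted p = 0.0507). MYBL2, the B-Myb factor of late cell cycle genes (chromosome 20, 43667019 to 43716496), ranged from 43.7 to 55.3 TPM (median 48.8) against 31.5 to 46.6 (median 34.5). The 46.6 TPM was again SAR439859 30 nM replicate 1, and the 5 other SAR439859 libraries lay below every hybrid library. MYBL2 differed by 0.45 (SE 0.0742, adjusted p = 0.0211), and by 0.51 without the 2 libraries (adjusted p = 0.00815). TOB1, an antiproliferative protein that promotes mRNA deadenylation (chromosome 17, 50862223 to 50867978), was also higher. It ranged from 1538 to 1872 TPM (median 1677) against 1126 to 1473 (median 1265), with no overlap, and differed by 0.43 (SE 0.0665, adjusted p = 0.0211), and by 0.43 without the 2 libraries (adjusted p = 0.0346).

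Windows of 250 bases before a start annotated in RefSeq (GRCh38.p14) were found by symbol for 10 of the 17 genes. Against the gene bounds of GENCODE 29, 6 of these windows lay outside the gene, 2 partly inside and 2, those of ATG5 and EBP, wholly inside, so the latter need not cover the promoter in use. Letters of an E2F site (TTTCCCGC, TTTGGCGC, TTTCGCGC or TTTGCCGC, either strand) were in 1 of the 10, that of E2F2 itself, and in 2.79% of all 27305 such windows and 4.45% of the 9094 of tested genes. None of the 10 held the full palindromic estrogen response element (0.0439% of all windows, 0.011% of those of tested genes). Nor did any hold its shorter arm AGGTCA (12.1% and 8.15%), and both strands were searched. The E2F2 window (chr1:23531234-23531483, minus strand) is shown because it holds the match, in capitals, which begins 42 bases before the start, and the TOB1 window (chr17:50867979-50868228, minus strand) because TOB1 was called with and without the 2 libraries and holds none.
E2F2: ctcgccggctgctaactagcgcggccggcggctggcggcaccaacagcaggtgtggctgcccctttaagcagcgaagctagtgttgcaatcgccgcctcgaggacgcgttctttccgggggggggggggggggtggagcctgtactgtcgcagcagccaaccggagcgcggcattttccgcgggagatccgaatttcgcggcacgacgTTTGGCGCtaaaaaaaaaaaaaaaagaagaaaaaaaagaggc
TOB1: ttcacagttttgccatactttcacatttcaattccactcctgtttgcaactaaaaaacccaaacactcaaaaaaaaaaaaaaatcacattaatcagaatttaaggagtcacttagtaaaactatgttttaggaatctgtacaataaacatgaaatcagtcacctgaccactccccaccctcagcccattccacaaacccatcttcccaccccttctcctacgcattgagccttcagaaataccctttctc
A match describes these letters in this window and shows no binding. Only these exact letters were searched, so a window without a match, such as that of MYBL2, can hold a site of other spelling.

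STARD10, EBP, MAPT, PSMG3 and ATG5 were also higher with the hybrids, and of these only STARD10 was called without the 2 libraries. STARD10, a phospholipid transfer protein (chromosome 11, 72754729 to 72793681), ranged from 441 to 537 TPM with the hybrids (median 491) and from 262 to 443 with SAR439859 (median 340). Only SAR439859 30 nM replicate 1 reached into the range of the hybrids. The STARD10 difference was 0.53 (SE 0.0847, adjusted p = 0.0211), and 0.52 without the 2 libraries (adjusted p = 0.00815). EBP, an isomerase of cholesterol synthesis (chromosome X, 48521158 to 48528716), ranged from 49.3 to 72.2 TPM (median 60.7) against 38.3 to 51.0 (median 45.2), and differed by 0.43 (SE 0.0831, adjusted p = 0.0461). For EBP 1 hybrid library, AZD-SAR at 30 nM, overlapped SAR439859. MAPT, the microtubule-binding protein tau (chromosome 17, 45894382 to 46028334), ranged from 39.2 to 52.5 TPM (median 47.7) against 31.0 to 42.1 (median 35.2). MAPT was higher by 0.41 (SE 0.0711, adjusted p = 0.0277), and 2 hybrid libraries lay inside the SAR439859 range. PSMG3, a chaperone of proteasome assembly (chromosome 7, 1567330 to 1571005), ranged from 40.6 to 53.1 TPM (median 47.3) against 31.7 to 38.6 (median 34.2), with no overlap, and was higher by 0.43 (SE 0.0757, adjusted p = 0.0277). ATG5, which is needed to form autophagosomes (chromosome 6, 106045423 to 106325791), ranged from 7.88 to 14.0 TPM (median 10.3) against 2.74 to 8.28 (median 4.84). ATG5 was higher by 0.89 (SE 0.167, adjusted p = 0.0442), and its SAR439859 libraries were lower at 30 nM (2.74 to 4.88 TPM) than at 300 nM, where 4.80, 7.71 and 8.28 TPM were read.

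The other 4 higher genes were FAM25A, HIST1H2AL, C10ORF91 and POM121C, none of them called without the 2 libraries. FAM25A differed by 0.71 (adjusted p = 0.0277) and C10ORF91, annotated as a long noncoding RNA, by 0.50 (adjusted p = 0.0453), both with no overlap between the groups. POM121C, a nuclear pore membrane protein, differed by 0.38 (adjusted p = 0.0453), with 11 of 12 hybrid libraries above the SAR439859 range. HIST1H2AL, a replication-dependent histone gene with near-identical copies and therefore uncertain, ranged from 102 to 181 TPM against 90.1 to 123 and differed by 0.54 (adjusted p = 0.0277). FAM25A and POM121C also belong to families of close copies, and their values are uncertain for the same reason.

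The 4 lower genes were EAF2, PSME4, MTND4P24 and AC007255.8, none of them called without the 2 libraries. EAF2, a factor that binds the ELL elongation factor (chromosome 3, 121835183 to 121886526), ranged from 5.76 to 14.0 TPM with the hybrids (median 8.89) and from 13.5 to 22.5 with SAR439859 (median 19.9). The lowest SAR439859 values of EAF2, 13.5 and 14.0 TPM, were at 300 nM, and 1 hybrid library reached them. The difference was -0.92 (SE 0.151, adjusted p = 0.0211), and -0.89 without the 2 libraries (adjusted p = 0.103). PSME4, the proteasome activator PA200 (chromosome 2, 53864067 to 53970840), ranged from 10.2 to 17.1 TPM (median 14.3) against 18.02 to 23.0 (median 19.7). Its groups did not overlap, and the difference was -0.50 (SE 0.0936, adjusted p = 0.0432). MTND4P24, annotated as a processed pseudogene of a mitochondrial gene (chromosome X, 126472885 to 126473281) and uncertain because its reads can be shared with near-identical copies, ranged from 12.5 to 24.8 TPM against 30.0 to 37.2. Summed mitochondrial pseudogenes had a median of 42344 TPM with the hybrids and 58128 with SAR439859. Within SAR439859 the sum ran from 447 TPM (30 nM replicate 1, MTND4P24 at 32.3 TPM) to 65758 (30 nM replicate 2, MTND4P24 at 30.3). Within the hybrids it ran from 32559 (AZD-SAR 30 nM replicate 1, MTND4P24 at 14.6) to 63411 (AZD-SAR 300 nM replicate 2, MTND4P24 at 24.8). The part of these pseudogenes in the MTND4P24 difference of -0.87 (SE 0.130, adjusted p = 0.0211) was not tested. AC007255.8 differed by -0.86 (adjusted p = 0.0432), and KB-1440D3.13, next in order of p, by -1.14 without a call (adjusted p = 0.0546).

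**Figure D3:**
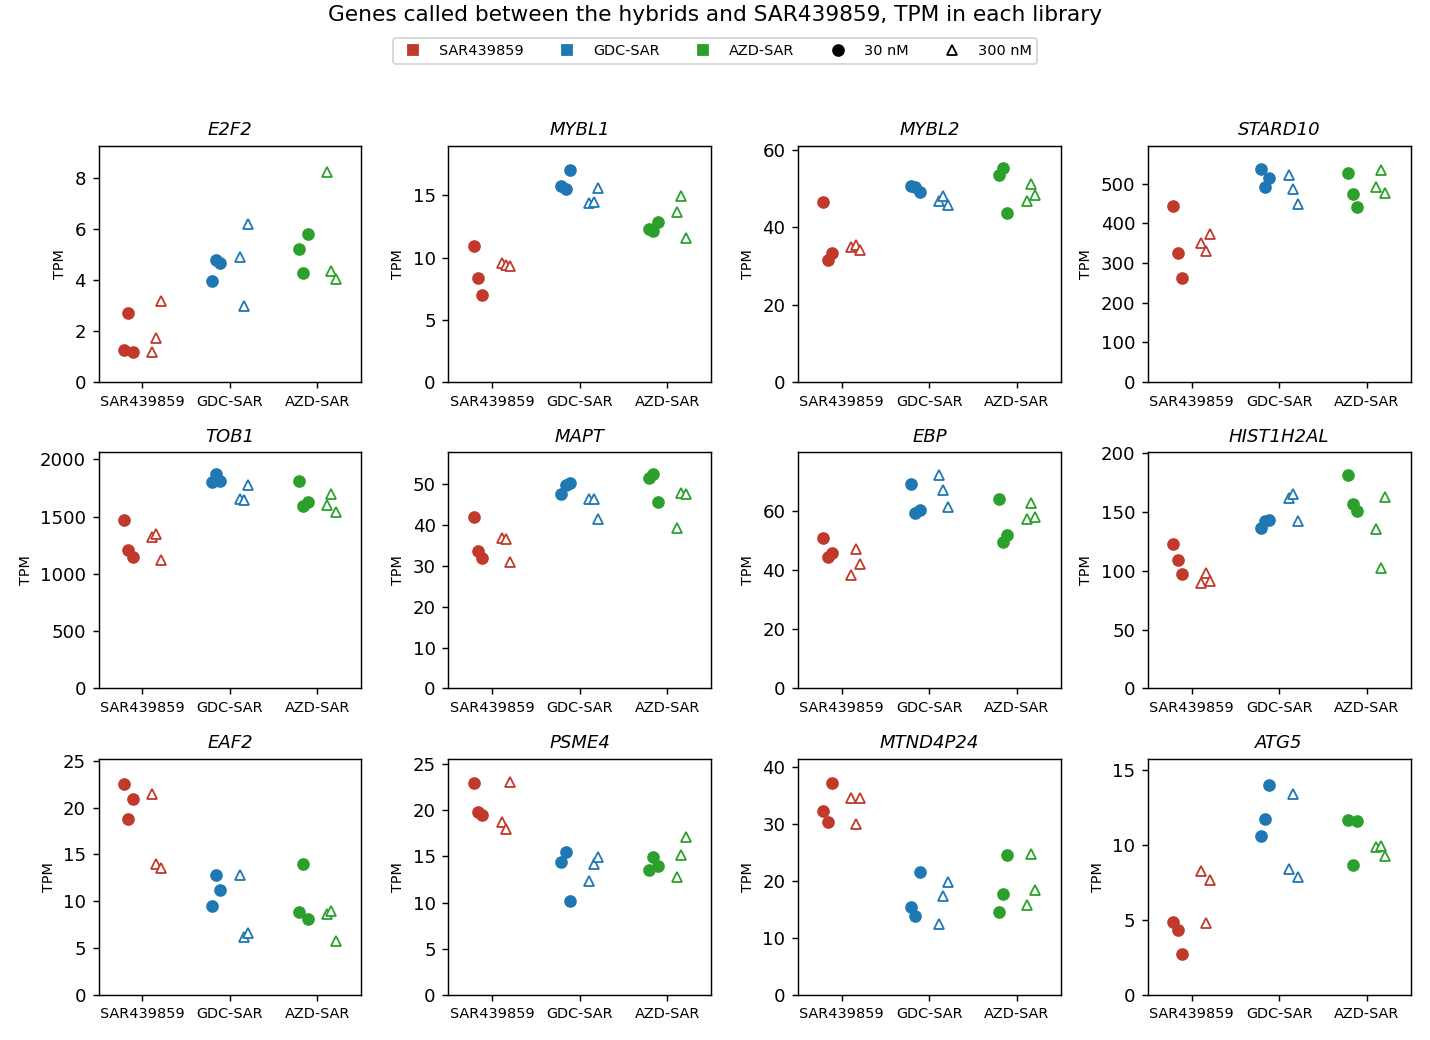
TPM (y axis, from 0) in each of the 18 libraries for 12 of the 17 called genes, by compound (x axis and color) and dose (filled circles 30 nM, open triangles 300 nM). The highest SAR439859 point of MYBL2 and STARD10 is 30 nM replicate 1, and the ranges of GDC-SAR and AZD-SAR overlap in each panel.

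Levels of 5 called genes in the rest of the series are given with no test. STARD10 averaged 969 ± 97.5 TPM (SD, n = 3) with DMSO and, at 300 nM, 821 ± 74.0 with AZD9496, 668 ± 37.1 with GDC-0810, 500 ± 30.4 with AZD-SAR, 486 ± 37.0 with GDC-SAR, 438 ± 63.3 with fulvestrant and 351 ± 21.3 with SAR439859. MYBL2 averaged 103 ± 5.47 TPM with DMSO, 90.4 ± 14.4 with AZD9496, 84.2 ± 3.26 with GDC-0810, 48.8 ± 2.27 with AZD-SAR, 46.9 ± 1.16 with GDC-SAR, 36.6 ± 4.40 with fulvestrant and 34.9 ± 0.738 with SAR439859 at 300 nM. E2F2 averaged 15.3 ± 5.20 TPM with DMSO and 5.55 ± 2.33, 4.71 ± 1.64, 2.15 ± 1.43 and 2.03 ± 1.03 with AZD-SAR, GDC-SAR, fulvestrant and SAR439859 at 300 nM. With AZD9496 and GDC-0810 at 300 nM, E2F2 ranged from 7.74 to 13.2 and from 3.95 to 12.8 TPM. EAF2 was lower with DMSO than with SAR439859, with 4.70 ± 0.286 TPM with DMSO, 7.78 ± 1.76 with AZD-SAR, 8.56 ± 3.71 with GDC-SAR, 15.03 ± 8.76 with fulvestrant and 16.3 ± 4.45 with SAR439859 at 300 nM. EAF2 with the parent ligands at 300 nM overlapped the hybrids, at 5.81 to 10.1 TPM with AZD9496 and 4.32 to 11.4 with GDC-0810. For these 4 genes the hybrid means at 300 nM lay between those of DMSO and SAR439859. POM121C did not follow this order: it averaged 87.7 ± 14.0 TPM with DMSO, 102 ± 11.7 with SAR439859 and 127 ± 7.33 with GDC-SAR at 300 nM. Of the called genes outside these 5, FAM25A and C10ORF91 also averaged above DMSO with both hybrids at 300 nM. FAM25A ranged from 60.4 to 74.4 TPM with DMSO and from 71.9 to 117 with the hybrids at 300 nM. The remaining called genes had hybrid means between those of DMSO and SAR439859. At 300 nM the SDs of fulvestrant and SAR439859 overlapped for E2F2, MYBL2 and EAF2. The 3 fulvestrant libraries of EAF2 there read 24.9, 8.31 and 11.9 TPM. At 30 nM EAF2 ranged from 8.98 to 13.5 TPM with fulvestrant and from 18.8 to 22.5 with SAR439859, without overlap. E2F2 did not overlap at 30 nM either (2.98 to 4.29 against 1.20 to 2.71), while MYBL2 did (39.1 to 45.7 against 31.5 to 46.6).

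The receptor and its best-known targets were not called between the hybrids and SAR439859. ESR1 (chromosome 6, 151656691 to 152129619) ranged from 250.1 to 436 TPM with the hybrids (median 372) and from 349 to 425 with SAR439859 (median 375), a difference of -0.07 with a 95% interval from -0.29 to 0.14. PGR, the progesterone receptor, ranged from 2.05 to 4.64 TPM (median 3.31) against 1.49 to 4.29 (median 1.90), and differed by 0.41 with an interval from 0.10 to 0.73 (adjusted p = 0.294). The highest SAR439859 value of PGR, 4.29 TPM, was 30 nM replicate 1, and the 5 others lay between 1.49 and 2.32. CCND1, cyclin D1, ranged from 78.6 to 113 TPM (median 96.5) against 62.2 to 116 (median 77.3), and differed by 0.29 (interval 0.07 to 0.51, adjusted p = 0.294). The 116 TPM was also 30 nM replicate 1, and the 5 others lay between 62.2 and 81.2. TFF1, a secreted trefoil peptide, differed by 0.25 (interval 0.01 to 0.50), MYC by 0.17 (-0.03 to 0.37), MKI67, a proliferation marker, by 0.14 (-0.06 to 0.35), and GREB1, a receptor cofactor, by -0.15 (-0.57 to 0.28). For GREB1, SAR439859 30 nM replicate 1 read 4.37 TPM, above every hybrid library (0.764 to 2.12). The 5 other SAR439859 libraries of GREB1 lay between 0.636 and 1.58 TPM, so its negative sign rests on that replicate. For none of these genes, from ESR1 to GREB1, does the interval reach 1 log2 unit on the log2(TPM + 1) scale. That scale understates the change of low genes such as PGR and GREB1. A 2-fold change in TPM is therefore not excluded for PGR and GREB1. CYP1A1, the aryl hydrocarbon receptor target, ranged from 4.76 to 9.21 TPM (median 6.44) against 6.24 to 12.5 (median 10.6), and differed by -0.45 (interval -0.75 to -0.16, adjusted p = 0.217), with GDC-SAR at -0.62 and AZD-SAR at -0.29 (SE 0.150 for each).

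Gene lists, chosen with earlier results of these data known, are given by counts and medians, beside the median of -0.01 over all genes. Of 41 estrogen-induced genes tested, 1 was called, MYBL1, and the list median was 0.20 (0.21 without the 2 libraries). At an unadjusted p below 0.05, 14 of the 41 were higher and 1 lower, where 5.92% and 5.96% of all genes were. Its largest differences after MYBL1 were OLFM1 at 0.65 (adjusted p = 0.178), TPD52L1 at 0.64 (adjusted p = 0.0939) and IL20 at 0.61 (adjusted p = 0.321). TPD52L1, a coiled-coil protein that interacts with cell cycle and vesicle proteins, ranged from 37.6 to 70.5 TPM (median 57.2) against 23.7 to 41.7 (median 34.8). Of 20 estrogen-repressed genes none was called (limma; 3 lower and 0 higher at an unadjusted p below 0.05), and the median was -0.06. Among them TP53INP1, a stress-induced autophagy protein, ranged from 74.2 to 91.7 TPM with the hybrids and from 92.7 to 131 with SAR439859. These TP53INP1 values did not overlap, and the difference was -0.30 (SE 0.0813, adjusted p = 0.170).

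**Figure D4:**
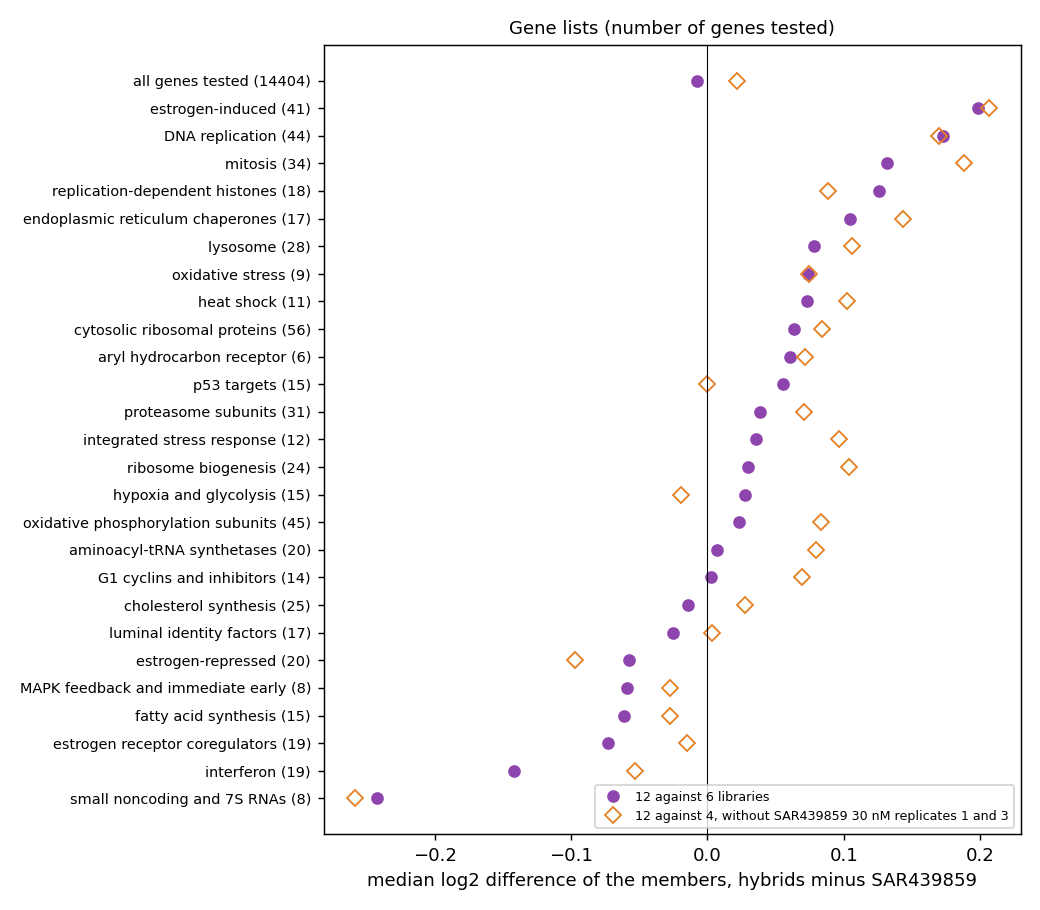
Median log2 difference of the tested members of each list (x axis) by list (y axis, number of genes tested in brackets), with all 18 libraries (filled circles) and without SAR439859 30 nM replicates 1 and 3 (open diamonds). The estrogen-induced, DNA replication and mitosis medians lie at 0.20, 0.17 and 0.13, and the interferon median moves from -0.14 to -0.05.

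The DNA replication and mitosis lists had medians of 0.17 and 0.13, and the G1 cyclins and inhibitors 0.00. Of 44 DNA replication genes 1 was called, E2F2, with 11 higher and 0 lower at an unadjusted p below 0.05. ORC6, an origin recognition subunit, ranged from 6.15 to 9.98 TPM (median 8.09) against 3.72 to 6.93 (median 5.33), and differed by 0.52 (SE 0.117, adjusted p = 0.103). GINS1, a subunit of the replicative helicase, differed by 0.44 (adjusted p = 0.136) and PCNA, the sliding clamp, by 0.40 (adjusted p = 0.242). Of 34 mitosis genes none was called (limma; 6 higher and 0 lower at an unadjusted p below 0.05). NUF2, a kinetochore protein, had the largest difference at 0.71 (adjusted p = 0.212), HMMR, a spindle protein, 0.47 (adjusted p = 0.154), CCNA2, cyclin A2, 0.38 (adjusted p = 0.212), and CDC20, the activator of the anaphase-promoting complex, -0.35 (adjusted p = 0.474). Of 14 G1 cyclins and inhibitors none was called (limma; 1 higher and 1 lower at an unadjusted p below 0.05), and 7 had positive and 7 negative differences. Fewer cycling cells and less RNA per cell cannot be told apart in bulk libraries.

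The level of the 41 estrogen-induced genes in a library, as their mean log2(TPM + 1), ran from 4.06 to 4.36 with the hybrids (median 4.27) and from 3.97 to 4.28 with SAR439859 (median 4.05). SAR439859 30 nM replicate 1 held the 4.28, the other 5 lay at or below 4.06, and 4 hybrid libraries were above all 6. With median-of-ratios scaling, which lowers that replicate to 4.06, all 12 hybrid libraries (4.14 to 4.35) were above all 6 SAR439859 libraries (3.99 to 4.09). With mitochondrial pseudogenes left out instead, 8 hybrid libraries were above all 6. The scaling was not particular to this list. It moved endoplasmic reticulum chaperones from 0 to 9 such libraries and mitosis from 4 to 9, and left interferon at 0. The DNA replication level ran from 3.10 to 3.35 with the hybrids and from 3.04 to 3.26 with SAR439859, again with replicate 1 at the top, and 8 of 12 hybrid libraries were above all 6 (11 with the scaling). For the estrogen-induced and DNA replication lists the unscaled ranges lie far below DMSO, whose 3 libraries averaged 5.71 ± 0.0883 (SD) and 4.62 ± 0.0363. They lie beside fulvestrant at 300 nM, with 4.20 ± 0.0967 and 3.19 ± 0.0921.

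**Figure D5:**
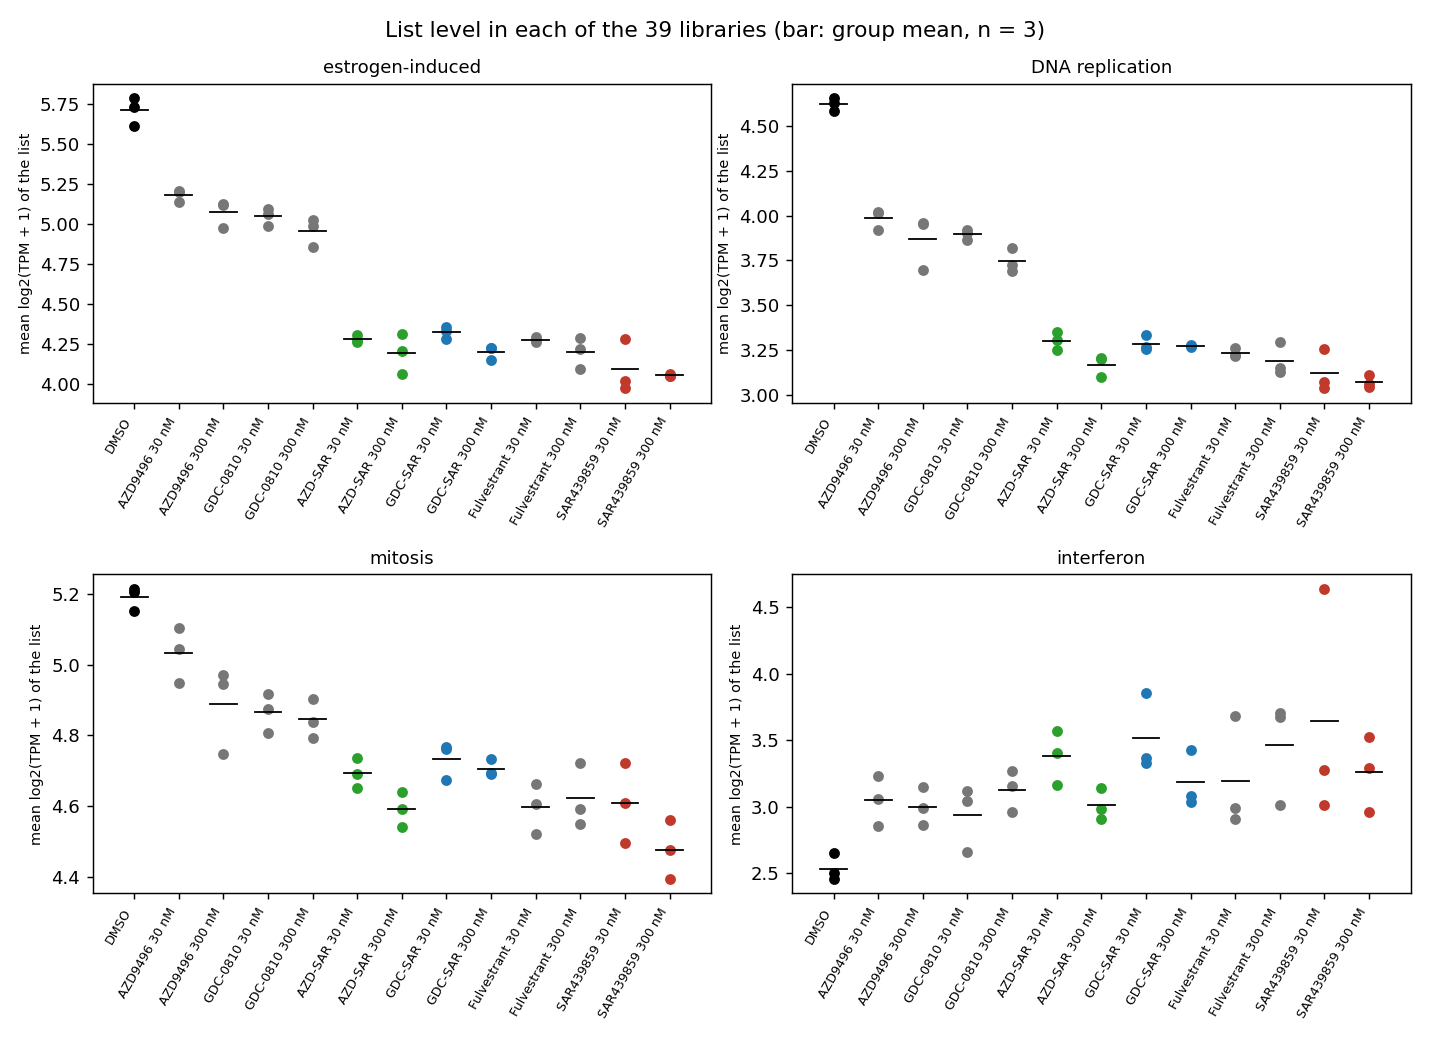
Mean log2(TPM + 1) of 4 lists (y axis, not from 0) in each of the 39 libraries, by group (x axis), with the group mean as a bar. SAR439859 at 300 nM has the lowest mean in the estrogen-induced and DNA replication panels, and in the interferon panel 1 SAR439859 30 nM library (4.64) stands above all others.

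The interferon, cholesterol, luminal, small noncoding RNA and aminoacyl-tRNA synthetase lists held 1 called gene, EBP. Of 19 interferon genes none was called (limma; 0 higher and 3 lower at an unadjusted p below 0.05), and the median of -0.14 became -0.05 without the 2 libraries, of which replicate 1 had the highest interferon level of the 18 (4.64 against 2.90 to 3.86 with the hybrids). MX1, an antiviral GTPase, ranged from 2.47 to 9.05 TPM with the hybrids and from 5.84 to 24.9 with SAR439859 (-0.77, adjusted p = 0.221). Of 25 cholesterol synthesis genes 1 was called, EBP, and the median was -0.01, with MVD at -0.51 (adjusted p = 0.450). Of 17 luminal identity factors none was called (limma; 3 higher and 4 lower at an unadjusted p below 0.05). Among these TFAP2C, an AP-2 factor, ranged from 116 to 140 TPM (median 133) against 90.5 to 130 (median 102) and differed by 0.33 (adjusted p = 0.0633), and GRHL2, a grainyhead factor of epithelia, differed by -0.82 (adjusted p = 0.290). All 8 small noncoding RNAs tested had negative differences (median -0.24, none called by limma, 1 lower at an unadjusted p below 0.05). Among 20 aminoacyl-tRNA synthetases WARS, the tryptophan enzyme, was nearest to a call, at 0.43 (adjusted p = 0.0633).

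The compounds were then compared at matched doses. With p-values adjusted over all genes and all 4 pairs of a hybrid and SAR439859 together, 0 genes were called by limma. At an unadjusted p below 0.05 there were 1575 (10.9%) for GDC-SAR and 1065 (7.39%) for AZD-SAR at 30 nM, and 425 (2.95%) and 575 (3.99%) at 300 nM. The 95% interval of a single pair reached a median of 0.55 log2 units to either side, and it lay within 1 log2 unit of 0 for 64.8% of genes with GDC-SAR and 67.0% with AZD-SAR at 30 nM, and for 73.0% and 71.4% at 300 nM. With the doses averaged, limma called 0 genes for GDC-SAR (1303 or 9.05% at an unadjusted p below 0.05) and 0 for AZD-SAR (1134 or 7.87%), and the interval reached a median of 0.39 to either side. The hybrids, which differ from each other in the scaffold, gave 0 calls against each other (limma, 316 or 2.19% at an unadjusted p below 0.05), and the interval lay within 1 log2 unit of 0 for 88.4% of genes. These comparisons share the SAR439859 libraries, so their calls are not independent.

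Values with each hybrid are given for 6 of the called genes. E2F2 differed from SAR439859 by 0.98 with GDC-SAR and 1.15 with AZD-SAR (SE 0.217 each), STARD10 by 0.54 and 0.51 (SE 0.106), MYBL2 by 0.43 and 0.46 (SE 0.0944) and TOB1 by 0.47 and 0.38 (SE 0.0813). MYBL1 differed by 0.71 with GDC-SAR and 0.47 with AZD-SAR (SE 0.102), and EBP by 0.53 and 0.34 (SE 0.0877). AZD-SAR minus GDC-SAR was -0.24 for MYBL1 and -0.18 for EBP, and neither was called.

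At 30 nM alone, 4 genes were called (0.0278%), all higher with the hybrids and each at an adjusted p of 0.0375. They were ATG5 at 1.33 (SE 0.202), BACH1-IT3 at 2.54 (SE 0.393), TMEM189-UBE2V1 at 2.10 (SE 0.327) and CTD-3157E16.2 at 1.92 (SE 0.271). BACH1-IT3, a transcript inside an intron of BACH1, was at 0.683, 3.74 and 0 TPM in the SAR439859 30 nM libraries, and at 7.95, 11.8 and 5.68 TPM at 300 nM. The 12 hybrid libraries of BACH1-IT3 ranged from 4.45 to 14.1 TPM, so the SAR439859 libraries were low at 30 nM only, and the difference at 300 nM was 0.05. TMEM189-UBE2V1, a readthrough of neighbouring genes and uncertain, averaged 0.165 ± 0.286 TPM with SAR439859 at 30 nM and 4.66 ± 2.03 at 300 nM. Without SAR439859 30 nM replicates 1 and 3 only 1 SAR439859 library is left at 30 nM, so these 4 calls cannot be checked that way. Leaving out single libraries moved the count of 4 by over 1.5 times in 16 of 18 refits, between 0 (9 refits, 1120 to 1853 genes at an unadjusted p below 0.05) and 168 (without SAR439859 30 nM replicate 2).

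At 300 nM alone limma called 0 genes, with 558 (3.87%) at an unadjusted p below 0.05, and 0 with the term for place in the group (746 at an unadjusted p below 0.05). The difference between the doses was called for 0 genes (limma, 643 or 4.46% at an unadjusted p below 0.05), and its interval reached a median of 0.67 to either side. STARD10 differed by 0.56 at 30 nM and 0.49 at 300 nM, MYBL2 by 0.45 and 0.45, E2F2 by 1.12 and 1.02, and EAF2 by -0.91 and -0.93. ATG5 had the widest gap of the called genes, 1.33 at 30 nM and 0.46 at 300 nM, and its dose difference was not called.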

How the data were processed

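RNA was measured by stranded RNA sequencing, and the authors deposited 1 table of TPM values, 46706 symbols in 39 libraries. The submitters' processing notes name STAR and GRCh38. How reads were counted, and on which annotation, is not given in the sources used here. Each deposited TPM column sums to 1000000, so depth cannot be read from it. Positions come from GENCODE 29, which holds 83.9% of tested symbols.

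Groups were read from the labels. Symbols averaging 1 TPM or more over all libraries (14404) were tested on log2(TPM + 1) with limma 3.58.1 (R 4.3.3, intensity trend, Benjamini-Hochberg over all genes, threshold 0.05). The pooled comparison had a term for compound class and a block for dose (15 residual degrees of freedom). Single doses, single compounds and pairs used a mean per compound and dose (12). A fold on this scale understates the change of low genes. Intervals are 95% intervals. The scripts were tested on simulated data.

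The libraries compared and the lists were chosen with earlier results of these data known. Named genes were 8 fixed genes, called genes of at least 5 TPM with 1 sign in all 4 pairs, up to 4 members per list with the largest differences, and the 5 smallest p where under 5 genes were called. E2F2 is below 5 TPM and enters through its list. CTD-3157E16.2, KRT19 and SERF2 were named after their values were seen.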

Additional observations from a re-analysis of the deposited data

How the results depend on the processing

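For the pooled comparison (17 genes called), 5 were called without SAR439859 30 nM replicates 1 and 3, 8 without the expression filter, 50 with median-of-ratios scaling, 151 with all 39 libraries, 53 with library weights, 0 with a mean per compound and dose, and 0 to 37 when 1 library was left out. With median-of-ratios scaling 37 of the 50 were higher with the hybrids, and with all 39 libraries 82 of the 151, against 13 of 17. Of the 17 genes, 17 stayed called with that scaling, with all 39 libraries, with library weights and with a pseudocount of 0.1, 8 without the filter, 3 without the 2 libraries and 0 with a mean per compound and dose. Chosen after seeing the data were the scaling without the 2 libraries (7 called) and leaving out mitochondrial pseudogenes (17 called, 16 of the 16 called genes that remain). Also added then was a replicate block from library order, the place of a library in its group by the number in its title, since replicate 1 had the highest cytosolic ribosomal protein level in 13 of 13 groups. The labels give no replicate numbers, so the fit as described does not take the order as a pairing. Deviations from the group means correlated above 0.1 in 12 of 45 pairs of libraries at the same place (median 0.04, against -0.03 for 90 pairs at different places). Of 18 libraries 13 correlated best with their own place. Libraries thus differed by place, and the 17 calls, or 0 with a mean per compound and dose, leave that spread unmodelled. What the place stands for is not in the labels. With the block 56 genes were called (42 higher), which include the 17, and with a mean per compound and dose besides, 22, of which 10 were among the 17. At 30 nM the block gave 9, for GDC-SAR 4, and for 300 nM, AZD-SAR, the dose difference and the pairs 0 (limma; 746, 1471, 748 and 4598 at an unadjusted p below 0.05).

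At 30 nM (4 called) the count was 0 without the filter, 100 with all 39 libraries, and 0 to 168 with 1 library left out. Without the 2 libraries only 1 SAR439859 library remains at 30 nM, so no count is given for it. At 300 nM (0 called) it was 4 without the filter, 4 with library weights and 0 to 1 with 1 left out. GDC-SAR (0 called) gave 2 with a pseudocount of 0.1, 11 without the filter, 8 with scaling, 51 with all 39 libraries, 73 with library weights and 0 to 7 with 1 left out. AZD-SAR (0 called) gave 8 with all 39 libraries, 88 with library weights and 0 to 17. The dose difference (0 called) gave 1 without the filter and 0 to 6. The 4 pairs (0 called) gave 2 with a pseudocount of 0.1, 12 without the filter, 18 with all 39 libraries, 2 with library weights and 0 to 20. The cause of these moves was not tested. No result changed sign while called. Depth is unknown, so how far it limits low genes such as E2F2 cannot be read from the table.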
